A study of Mus musculus with 2 samples.

Results

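Metabolite and hormone receptors of fat cells were followed in inguinal white adipose tissue, the subcutaneous fat depot of the groin. The set held 10 genes, picked by symbol for receptors of metabolites, peptide hormones and natriuretic peptides that act on lipolysis, out of 37315 genes listed in both libraries. All 10 were found and all passed the minimum level used here, a mean of 1 CPM (read counts scaled to library size), as did 13361 genes in all. The set was put together with results of these libraries known, so its values are a description and carry no test.

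The data were 1 RNA-seq library of fat from mice given entacapone and 1 library of fat from mice given vehicle. Both came from male C57BL/6 mice aged 23 weeks that were obese from a high-fat diet. Entacapone is a drug for Parkinson disease, and inhibition of the RNA demethylase FTO by it has been described. The sources used here do not say at which dose or for how long the drug was given, nor how many mice went into each library. The fat cell marker Adipoq, the adiponectin gene, had 3118 CPM with entacapone and 2867 CPM with vehicle. The entacapone library held 12979673 counted reads and the vehicle library 13620056 reads. With 1 library in each group there is no replicate error, and all comparisons are between these 2 libraries. Intervals in brackets are exact 95% intervals for counting error only, and reads carried no molecular identifiers.

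Lipolysis is the breakdown of stored triglyceride to fatty acids and glycerol, and in fat cells it is driven mainly by cyclic AMP. Receptors coupled to inhibitory G proteins lower cyclic AMP and restrain it. Among these are the lactate receptor, the 3-hydroxybutyrate and niacin receptor, the adenosine A1 receptor, the short-chain fatty acid receptor and the succinate receptor. Natriuretic peptides act through cyclic GMP, made by the receptor NPR1, and are removed by the clearance receptor NPR3, which has no cyclase.

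Promoter windows of 300 bases are shown for 3 receptor genes. These are the pair that were at least 2-fold lower in the entacapone library (Oxtr and Ffar4) and Hcar1, which differed by less than counting error. In the vehicle library Hcar1 was near Oxtr in CPM (87.3 against 93.6 CPM), though it was higher per kilobase. Each window runs 5′ to 3′ on the gene's strand from 250 bases before to 50 bases after the annotated start (RefSeq, GRCm38.p6), and such windows were found for 8 of the 10 genes (not for Hcar2 and Gipr). Capitals mark matches, on either strand, to any of 8 motifs.
Oxtr, chr6:112489776-112490075, minus strand: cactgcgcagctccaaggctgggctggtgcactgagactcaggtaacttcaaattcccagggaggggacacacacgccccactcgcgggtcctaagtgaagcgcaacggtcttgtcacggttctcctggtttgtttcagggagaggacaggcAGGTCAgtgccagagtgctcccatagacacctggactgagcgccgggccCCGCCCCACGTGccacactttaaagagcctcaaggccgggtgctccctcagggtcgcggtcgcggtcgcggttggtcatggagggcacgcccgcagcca
Ffar4, chr19:38096829-38097128, plus strand: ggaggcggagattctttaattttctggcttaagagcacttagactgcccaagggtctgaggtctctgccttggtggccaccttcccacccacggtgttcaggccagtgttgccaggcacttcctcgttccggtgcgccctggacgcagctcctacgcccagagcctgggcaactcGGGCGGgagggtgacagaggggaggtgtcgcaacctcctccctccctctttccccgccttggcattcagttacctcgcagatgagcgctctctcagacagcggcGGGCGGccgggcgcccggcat
Hcar1, chr5:123879954-123880253, minus strand: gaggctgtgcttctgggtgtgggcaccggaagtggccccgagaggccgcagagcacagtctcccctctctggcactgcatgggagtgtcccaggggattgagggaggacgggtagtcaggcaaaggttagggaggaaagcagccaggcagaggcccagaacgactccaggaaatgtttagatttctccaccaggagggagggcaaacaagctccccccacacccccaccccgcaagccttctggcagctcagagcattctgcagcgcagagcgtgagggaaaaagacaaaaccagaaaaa
The TATA box was searched as TATAAA and the GC box as GGGCGG. Half-sites of nuclear receptors were searched as AGGTCA, and the CCAAT box by its name. The cyclic AMP response element was searched as TGACGTCA, sites of the C/EBP factors as TTGCNNAA, the E-box as CACGTG and the site of AP-1 factors as TGACTCA. The Oxtr window held 1 nuclear receptor half-site starting at base -98, 1 GC box on the other strand at -49 and 1 E-box that follows it directly at -43. Among 32851 windows of this length, 16.3% held AGGTCA, 35.7% held GGGCGG and 7.15% held CACGTG. The TATA box was in 13.6% of them, the CCAAT box in 37.4%, the cyclic AMP response element in 1.79%, the C/EBP site in 10.8% and the AP-1 site in 5.2%. The matches shown do not overlap each other. The Ffar4 window held 2 GC boxes, at -75 and +30. The Hcar1 window held no match to these 8 motifs. Windows not shown, of genes that also differed by less than counting error, did hold matches. The Npr1 window had GC boxes and a CCAAT box. Across the Ffar2 windows there were a GC box, a nuclear receptor half-site and an E-box, as for Oxtr. A relation of motifs to the ratios was not tested. These matches are letters in a window, not binding sites.

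Of the 10 receptor genes, 2 were at least 2-fold lower in the entacapone library with an interval that excluded no difference, and 0 were at least 2-fold higher. Over all 13361 genes compared, 3.5% were lower and 1.66% higher by the same rule. With differences of any size, 5 of the 10 were lower beyond counting error and 0 were higher, against 21.1% lower and 20.2% higher among all genes. The other 5 lay within counting error. The 10 genes had from 70 to 20183 reads in a library, and no test was made of their share against that of all genes. The median log2 ratio (entacapone over vehicle, with 0.5 CPM added) was -0.12 over the 10 genes and 0.00 over all genes compared. Fewer cells of a type and less RNA per cell cannot be told apart in such bulk RNA.

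**Figure D1:**
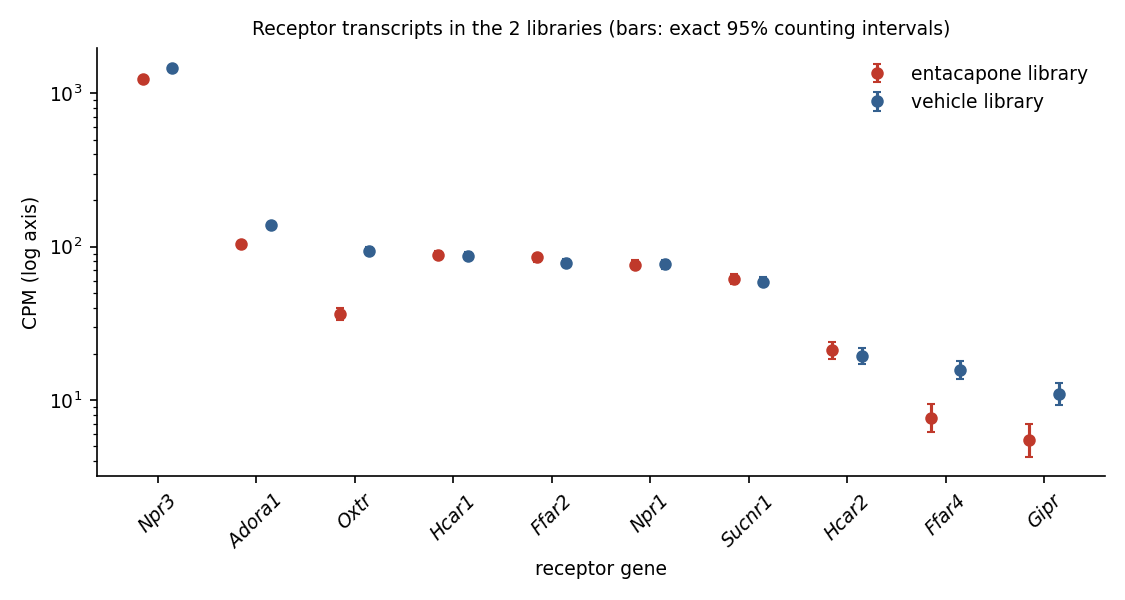
Levels of the 10 receptor genes in CPM on a log axis, with the entacapone library left of the vehicle library for each gene and bars for exact 95% counting intervals. Oxtr, Ffar4, Gipr, Adora1 and Npr3 have separate intervals with the entacapone library lower, while Hcar1, Npr1 and Sucnr1 sit side by side.

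Oxtr, which encodes the receptor of the peptide hormone oxytocin, had the lowest ratio of the set. It had 468 reads (36.6 CPM) in the entacapone library and 1293 reads (93.6 CPM) in the vehicle library. The level was thus 2.56-fold lower (2.30 to 2.85) with entacapone, a log2 ratio of -1.36 (-1.51 to -1.20). Of all genes compared, 1.76% had a lower ratio. Oxtr lies on chromosome 6 (112473683 to 112489943, minus strand, GRCm38) and is protein-coding. The neighbouring Cav3, the caveolin of muscle, ends 810 bases away and had 9 reads in the entacapone and 9 in the vehicle library.

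Ffar4, also called GPR120, encodes a receptor for long-chain fatty acids. It had few reads in both libraries, 98 reads (7.66 CPM) in the entacapone library and 217 reads (15.7 CPM) in the vehicle library. That is 2.05-fold lower with entacapone (1.61 to 2.63), just past the 2-fold limit. Ffar4 lies on chromosome 19 (38097071 to 38114263, plus strand). The gene next to it, 2365 bases further on, is Rbp4, which encodes the retinol carrier of plasma, and it differed in the other direction. Rbp4 had 400 CPM with entacapone and 299 CPM with vehicle (log2 ratio 0.42, 0.36 to 0.48).

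Gipr, the receptor of the gut hormone GIP and the least abundant of the set, fell just short of the 2-fold limit. It had 70 reads (5.47 CPM) in the entacapone library and 151 reads (10.9 CPM) in the vehicle library. Its log2 ratio was -0.999 (-1.43 to -0.58), and the interval reaches up to 2.69-fold lower. Gipr passed the 2-fold limit under 3 of 4 other ways to scale the libraries. Its neighbours on chromosome 7 (Gipr spans 19156061 to 19166127) did not share this value, with log2 ratios of 0.13 (-0.05 to 0.31) for Snrpd2, a splicing factor gene, and 0.24 (0.04 to 0.43) for Eml2, a gene for a microtubule-binding protein.

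**Figure D2:**
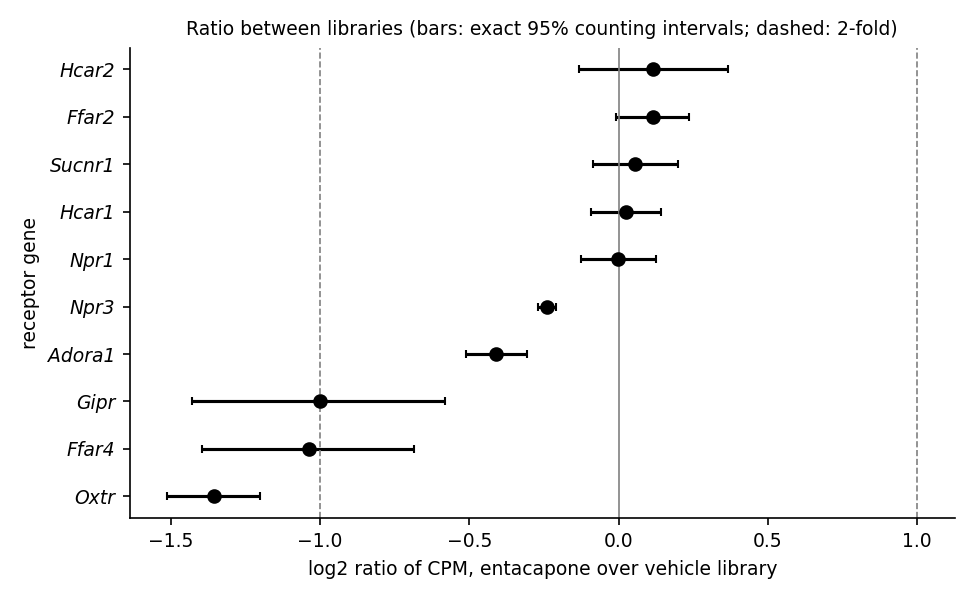
Log2 ratio of CPM, entacapone over vehicle, for each receptor gene, with bars for exact 95% counting intervals and dashed lines at 2-fold. Oxtr and Ffar4 lie beyond the left dashed line, Gipr lies just inside it at -0.999, Adora1 and Npr3 lie between it and 0, and the intervals of the other 5 genes include 0.

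Adora1 encodes the adenosine A1 receptor, an inhibitory receptor of lipolysis. It had 1324 reads (103 CPM) in the entacapone library and 1899 reads (137 CPM) in the vehicle library. The log2 ratio was -0.41 (-0.51 to -0.31), or 1.33-fold lower, and 15.1% of all genes had a lower ratio. Adora1 (chromosome 1, 134199223 to 134235431, minus strand) shares 1162 exon bases with Mybph, a muscle gene on the other strand, and the library kit does not mark strand. Mybph itself had 2 reads in the entacapone and 7 reads in the vehicle library.

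The receptors of lactate, ketone bodies, short-chain fatty acids and succinate differed by less than counting error. Hcar1, the lactate receptor gene, had 1137 reads (88.8 CPM) in the entacapone library and 1206 reads (87.3 CPM) in the vehicle library (log2 ratio 0.03, -0.09 to 0.14). Hcar2, whose product binds 3-hydroxybutyrate and niacin, had 269 reads (21.02 CPM) with entacapone and 268 reads (19.4 CPM) with vehicle (0.12, -0.13 to 0.36). These genes lie 11236 bases apart on chromosome 5 (Hcar1 at 123876736 to 123880020, Hcar2 at 123863570 to 123865499), each as a single exon on the minus strand. No stretch of 101 bases, the read length, was common to the transcripts of Hcar1 or Hcar2 and those of any other gene.

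Ffar2, which encodes the receptor of acetate and propionate, had 1087 reads (84.9 CPM) in the entacapone library and 1084 reads (78.5 CPM) in the vehicle library. Its log2 ratio was 0.11 (-0.01 to 0.24). Its relatives at the same place on chromosome 7 were close to absent, with 0 reads in both libraries for Ffar3 and 4 reads with entacapone against 1 read with vehicle for Ffar1. Sucnr1, the succinate receptor gene on chromosome 3 (60081869 to 60087566), had 786 reads (61.4 CPM) with entacapone and 816 reads (59.1 CPM) with vehicle (0.06, -0.09 to 0.20). For these 4 receptors the intervals leave room for at most 1.29-fold in either direction at this depth.

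Of the natriuretic peptide receptors, Npr3 was more abundant per kilobase than Npr1 in both libraries. Npr3, the clearance receptor gene, had 15825 reads (1236 CPM) in the entacapone library and 20183 reads (1461 CPM) in the vehicle library. It took 71.8% of the reads of the 10 genes with entacapone and 71.6% with vehicle. The log2 ratio was -0.24 (-0.27 to -0.21), or 1.18-fold lower (1.16 to 1.21), a small difference beyond counting error on many reads. A lower ratio was found for 24.04% of all genes. Npr1, the signalling receptor gene, had 978 reads (76.4 CPM) in the entacapone and 1056 reads (76.4 CPM) in the vehicle library, with a log2 ratio of -0.00 (-0.13 to 0.13). Antisense or divergent transcripts share 559 exon bases with Npr1 (Gm16048, 4 reads with entacapone and 1 read with vehicle) and 321 exon bases with Npr3 (Gm5144, which is not among the listed genes).

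**Figure D3:**
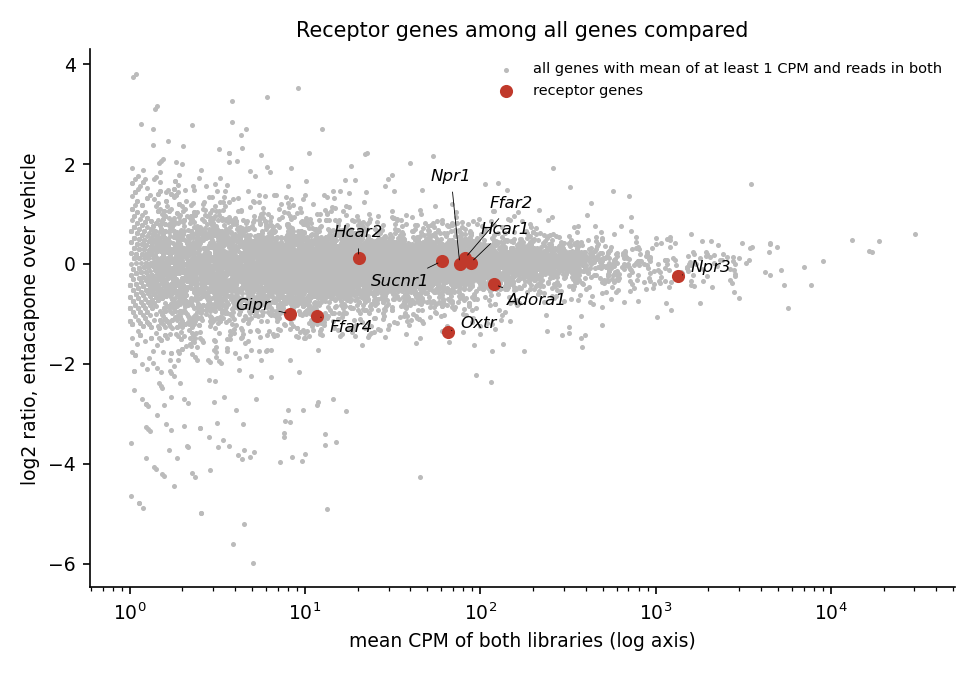
Log2 ratio (entacapone over vehicle) against the mean CPM of both libraries on a log axis, for all genes compared that had reads in both libraries (grey) and the 10 receptor genes (red). Oxtr lies at -1.36, where 1.76% of all genes compared have a lower ratio, and Npr3 lies far to the right at 1349 CPM.

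Per length, as CPM per kilobase of merged exons (RPKM), the order of the receptors was similar in both libraries. Npr3 led with 132 RPKM in the entacapone and 156 RPKM in the vehicle library. Sucnr1 came next (37.4 RPKM with entacapone, 36.0 RPKM with vehicle), then Ffar2 (30.4 RPKM with entacapone, 28.1 RPKM with vehicle) and Hcar1 (27.0 RPKM with entacapone, 26.6 RPKM with vehicle). Ffar2 and Hcar1 could not be ordered beyond counting error in either library. Oxtr was the 8th of the 10 genes in the entacapone library at 7.63 RPKM, and the 6th in the vehicle library at 19.5 RPKM. Ffar4 had 5.47 RPKM with entacapone and 11.2 RPKM with vehicle, which put it below Hcar2 with entacapone, whereas their intervals overlapped with vehicle. Gipr was last in both libraries, at 1.57 RPKM with entacapone and 3.14 RPKM with vehicle.

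Ratios of receptor genes within a library need no scaling between libraries. Npr1 was 0.121 of Npr3 per kilobase in the entacapone library and 0.103 in the vehicle library, a ratio 1.18 times as high with entacapone (1.08 to 1.29). The ratio of Hcar1 to Hcar2 was 2.48 with entacapone and 2.64 with vehicle, and these differed by less than counting error (0.939, 0.775 to 1.14). Adora1 stood at 2.20 times Adora2a, the gene of a stimulatory adenosine receptor, with entacapone and at 3.60 times with vehicle, so that this ratio was 0.612 times as high (0.511 to 0.732). The ratio of Adrb3, the stimulatory beta-3 adrenergic receptor gene, to Adora1 was 3.42 with entacapone and 1.33 with vehicle, 2.58 times as high (2.34 to 2.84). Adrb3 itself had 207 CPM with entacapone and 106 CPM with vehicle.

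**Figure D4:**
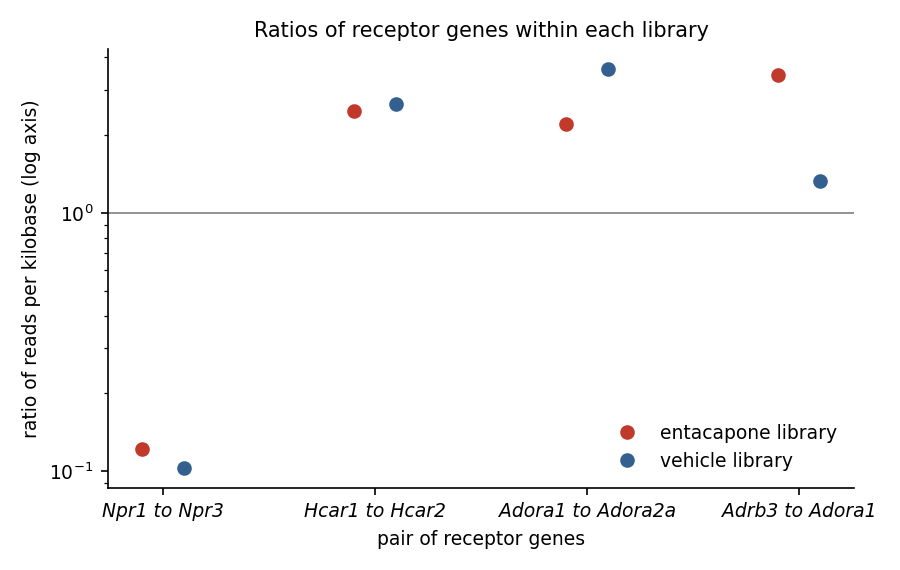
Ratio of reads per kilobase between the genes of 4 receptor pairs, on a log axis, in the entacapone library (left) and the vehicle library (right) of each pair. The ratio of Adrb3 to Adora1 is 3.42 with entacapone and 1.33 with vehicle, and the ratio of Hcar1 to Hcar2 is 2.48 with entacapone and 2.64 with vehicle.

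The peptide ligands' own transcripts were not found. Oxt, Gip, Nppa, Nppb, Nppc and Ostn had 0 reads in both libraries, which allows at most 0.234 CPM with entacapone and 0.217 CPM with vehicle (3 counts), so the hormones' own genes were not detectable at this depth. Among 33 genes that supply or clear the receptors' ligands, 26 were measured, and 1 was at least 2-fold lower and 0 higher. The 2-fold rule took in 3.5% (lower) and 1.66% (higher) of all genes compared. With differences of any size, 10 of the 26 were higher and 6 lower than counting error allows, beside 20.2% and 21.1% of all genes compared. The median log2 ratio was 0.04. The 1 gene was Dpp4, whose protease inactivates GIP and which also marks adipocyte progenitors, at 8.91 CPM with entacapone and 23.5 CPM with vehicle (log2 ratio -1.40, -1.72 to -1.09). Bdh1, a ketone body enzyme, was at -1.01 (-2.13 to 0.03), on 12 reads with entacapone and 26 reads with vehicle. The highest were the monocarboxylate transporters Slc16a7 (0.65, 0.38 to 0.91) and Slc16a3 (0.56, 0.05 to 1.07). Ldha, which makes lactate, had 1159 CPM in both the entacapone and the vehicle library.

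Among 42 other receptors tied to lipolysis, 32 were measured, and 3 were at least 2-fold higher and 2 at least 2-fold lower. By the same rule 1.66% of all genes compared were higher and 3.5% lower. The median log2 ratio of the 32 receptors was -0.06, with 10 higher and 7 lower beyond counting error (20.2% and 21.1% among all genes compared). Ptger3, an inhibitory prostaglandin E2 receptor, had 44.7 CPM with entacapone and 115 CPM with vehicle. Its log2 ratio of -1.37 (-1.51 to -1.23) was close to that of Oxtr. Gcgr, the glucagon receptor, was lower on few reads, 15 with entacapone and 63 with vehicle (-1.96, -2.88 to -1.13). Among the higher ones were Mc5r, a melanocortin receptor, on 76 reads with entacapone and 20 with vehicle (2.04, 1.31 to 2.83) and Sctr, the secretin receptor (1.38, 1.04 to 1.73). Npr2, the receptor of C-type natriuretic peptide, was at 0.20 (0.07 to 0.33).

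Genes downstream of the receptors were also counted. Of 31 measured genes for G proteins, adenylyl cyclases, phosphodiesterases and kinases, 1 was at least 2-fold lower and 0 higher. All genes compared gave 3.5% lower and 1.66% higher by this rule. The median log2 ratio of the 31 genes was -0.10. When any size beyond counting error is taken, 7 of them were higher and 9 lower, beside 20.2% and 21.1% of all genes compared. Adcy7, an adenylyl cyclase, was the gene past the 2-fold limit, at 18.4 CPM with entacapone and 37.8 CPM with vehicle (-1.04, -1.27 to -0.82). Next lowest was Gnaz, an inhibitory G protein subunit, at -0.72 (-1.54 to 0.07). Rgs2, which shortens G protein signals, was the highest at 0.67 (0.38 to 0.96), and Gna11, a Gq family subunit, followed at 0.24 (0.14 to 0.35). The inhibitory subunit genes Gnai1 and Gnai2 were at 0.10 (0.04 to 0.16) and -0.12 (-0.18 to -0.07).

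Of 16 genes of the lipolysis machinery, all measured, 1 was at least 2-fold lower and 0 higher (3.5% and 1.66% of all genes compared). Counting any size beyond counting error, 5 were higher and 9 lower, against 20.2% and 21.1% of all genes compared. The median log2 ratio was -0.09. The median level of the list was 471 CPM with entacapone and 782 CPM with vehicle, and on many reads small differences pass counting error. Lipe at 0.028 (0.005 to 0.052) and Cidec at -0.058 (-0.071 to -0.045) were counted in this way. G0s2, whose product inhibits adipose triglyceride lipase, was at 214 CPM with entacapone and 575 CPM with vehicle (-1.42, -1.49 to -1.36). Plin5, a droplet coat protein gene, was at -0.76 (-1.01 to -0.52). The lipase gene Pnpla2 was highest at 0.41 (0.40 to 0.43), followed by its coactivator Abhd5 at 0.28 (0.20 to 0.36).

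**Figure D5:**
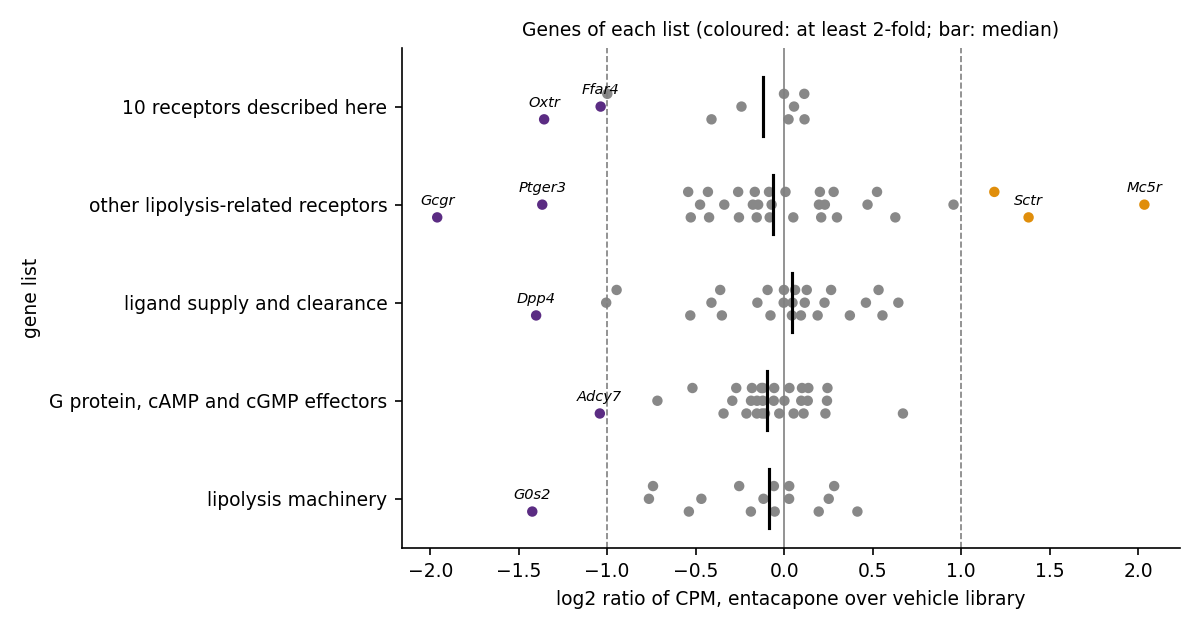
Log2 ratio of CPM, entacapone over vehicle, for the measured genes of the 10 receptors and of 4 gene lists, with a black bar at each median (0.5 CPM added) and dashed lines at 2-fold. Coloured points are past the 2-fold limit and beyond counting error, and those described in the text are named, and all medians lie between -0.12 and 0.04.

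The libraries also differed in markers of some other cell types. Among all genes compared, 20.2% were higher and 21.1% lower beyond counting error, the rule used for the counts below. Adipocyte markers were split (9 of 17 higher and 7 lower than counting error allows, median log2 ratio 0.03, summed level 70294 CPM with entacapone and 63950 CPM with vehicle). Scaled to that median, Oxtr was at -1.39, Ffar4 at -1.07 and Gipr at -1.03. Macrophage markers were lower in 14 and higher in 1 of 16 (982 CPM with entacapone, 1830 CPM with vehicle). Fibroblast and progenitor markers were lower in 12 and higher in 0 of 14 (5189 CPM with entacapone, 8077 CPM with vehicle), and liver markers lower in 14 and higher in 1 of 15. The liver markers summed to 1048 CPM with entacapone and 945 CPM with vehicle, of which Cyp2e1, also expressed in fat, took 949 CPM with entacapone and 497 CPM with vehicle. Skeletal muscle markers were higher in 13 of 14 measured (2296 CPM with entacapone, 1481 CPM with vehicle). Skin and mammary epithelium markers were higher in 6 and lower in 0 of 9 measured (59.8 CPM with entacapone, 20.7 CPM with vehicle). Mast cell markers were lower in 4 and higher in 0 of 7 measured (39.0 CPM with entacapone, 63.7 CPM with vehicle), and red blood cell markers were higher in 5 of 5 measured (467 CPM with entacapone, 283 CPM with vehicle). No listed gene of these 8 marker sets was at 0 in both libraries. Among them, median log2 ratios were -3.05 for liver, -1.04 for mast cell, -0.87 for macrophage and -0.58 for fibroblast and progenitor markers. The medians were 0.71 for skeletal muscle, 0.71 for red blood cell and 1.13 for skin and mammary epithelium markers. Further sets were counted too. Endothelial markers were even, with 4 higher and 4 lower of 11 measured (median log2 ratio -0.04, 1259 CPM with entacapone, 1255 CPM with vehicle). Median log2 ratios were -0.06 for smooth muscle and pericyte markers, 0.12 for B cell and 0.18 for Schwann cell markers. Smooth muscle and pericyte markers were higher in 2 and lower in 5 of 9 (1321 CPM with entacapone, 1442 CPM with vehicle). B cell markers were higher in 1 and lower in 1 of 8 (624 CPM with entacapone, 887 CPM with vehicle). Schwann cell markers were higher in 2 and lower in 1 of 4 measured (68.1 CPM with entacapone, 75.7 CPM with vehicle). Medians for the last 3 sets were 0.46 for T cell, -0.41 for brown adipocyte and -0.86 for neutrophil markers. T cell markers were higher in 1 and lower in 0 of 10 (35.2 CPM with entacapone, 27.7 CPM with vehicle). Brown adipocyte markers were higher in 3 and lower in 4 of 7 measured (102 CPM with entacapone, 81.4 CPM with vehicle). Neutrophil markers were higher in 1 and lower in 3 of 4 measured (31.6 CPM with entacapone, 30.0 CPM with vehicle). The part of these cell types in the values of Oxtr, Ffar4, Gipr, Adora1, Ptger3, Gcgr, Mc5r, Dpp4 and Adcy7 was not tested.

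The genes beside the receptors on the chromosomes ranged widely, mostly on few reads at the extremes. Of 18 nearest protein-coding neighbours outside the set, 13 were measured, and their log2 ratios ran from -1.99 to 0.98. Beyond counting error, 4 were higher and 2 lower, beside 20.2% and 21.1% of all genes compared. The lowest was Aadac, a liver-expressed esterase gene beside Sucnr1, on 7 reads with entacapone and 30 reads with vehicle. The highest was Krtdap, a keratinocyte gene beside Ffar2, on 55 reads with entacapone and 30 reads with vehicle.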

How the data were processed

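The deposited files give, without a header, the authors' raw read count for each Ensembl gene in 1 entacapone and 1 vehicle library. Per the labels' protocols, poly(A) RNA was made into TruSeq RNA v2 libraries, which do not mark strand, and read to 101 bases. The submitters' processing notes name TopHat2 2.1.1, HTSeq 0.6.0 and mm10; which annotation release and counting mode were used, and how multiply mapped reads were treated, is not given in the sources used here. Of 37315 listed genes, 35533 were matched by identifier to GENCODE M21 (GRCm38, the assembly of mm10); the other 1782 stayed in the library sizes. CPM was computed with edgeR 4.0.16 (TMM factors 0.986 for entacapone and 1.01 for vehicle). Ratio intervals came from Clopper-Pearson intervals (scipy 1.17.1) of the share of a gene's reads that came from the entacapone library, and intervals for ratios of 2 genes from the exact conditional odds ratio. Genes averaging at least 1 CPM were compared, and the 2-fold limit also required an interval that excluded no difference. No p-value is given. The calculation was run on simulated counts that held counting error only. That checks the arithmetic and cannot speak to variation between mice or to calls near the limit. Named genes were the 10 receptors, their nearest neighbours, and, of each list, those past the limit plus the 2 highest and 2 lowest; others named (Ldha, Ffar1, Ffar3, Npr2, Gnai1, Gnai2, Adrb3, Adora2a) were chosen for their role. The 10 receptors, the lists and the motifs were chosen with earlier results of these data known. Pde2a matched no listed gene, and 1 gene past the limit is not reported here. Alternatives were DESeq2 1.42.0 size factors and the others described at the end.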

Additional observations from a re-analysis of the deposited data

How the results depend on the processing

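The 10 ratios were recomputed with total counts, DESeq2 size factors, upper-quartile scaling, scaling to the adipocyte markers (4 scalings), and with the trend on transcript length and GC content removed. Oxtr stayed between -1.40 and -1.34 on the log2 scale, Ffar4 between -1.08 and -1.02, and Gipr between -1.04 and -0.98, so Gipr alone crossed the 2-fold limit. Npr3 with total counts was at -0.28, outside its counting interval. With a minimum mean of 5 CPM, 84 genes were at least 2-fold higher and 190 lower; with a 1.5-fold limit, 556 were higher and 1056 lower, and 3 receptors were lower. Fewer genes are compared under the first, and the second is wider. The 5 list medians moved by less than the typical counting error of their genes under these scalings, other minimum levels and other pseudocounts. No paired analysis was possible because each group has 1 library. Depth limits Gipr and Ffar4 most, with 70 and 98 reads in the entacapone library.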
